A study of Saccharomyces cerevisiae with 6 samples.

Results

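The comparison described here sets control cells of budding yeast in 2% galactose against control cells in 0.25% glucose. It rests on 2 of the 6 libraries of the series, 1 on each side, chosen by the plasmid and the sugar in their labels. Because both media lacked abundant glucose, the comparison sets transcript levels in the absence of glucose beside those where glucose was scarce. The absence of glucose, the presence of galactose and the amount of sugar, 2% against 0.25%, changed together and cannot be told apart. Of the 6687 features measured, 5413 had a mean of at least 10 counts per 1000000 reads (CPM) over both libraries and were compared. The other 1274 were not. Because the minimum applies to the mean, a gene below it in 0.25% glucose could pass through its galactose level alone. Counts of higher genes, medians and the order of the lists below include such genes and carry this limit. Where single genes are marked for it below, the marking is not complete.

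mRNA was sequenced from BY4741, a laboratory haploid whose mating type is a. Control cells carried the empty vector pCM190. The remaining libraries came from cells with the same plasmid holding the *PPZ1* coding region behind the tetO7 promoter, which doxycycline represses. Cells of each kind spent 1 h in 1 of 3 media. Their sugar was galactose at 2%, scarce glucose at 0.25% or abundant glucose at 2%. All cells, controls included, had been kept overnight with 100 µg/ml doxycycline, washed free of it, diluted to an OD600 of 0.2 and grown for 3.5 h to about 0.55 before the change of medium. The control cells in galactose and in 0.25% glucose thus shared the strain, the plasmid and the earlier treatment.

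The library in 0.25% glucose held 6784469 reads in features and the galactose library 3673635. At these depths 10 CPM was 67.8 and 37.1 reads. With 1 library per condition no difference has a replicate check, no p-value is given, and the errors and intervals below cover counting only, at 95% where an interval is given. The RNA came from whole cultures, in which fewer cells making a transcript and less of it per cell cannot be told apart. The identity of the cells was checked on defining genes. The 7 a-cell markers summed to 1846 CPM in 0.25% glucose and 637 CPM in galactose, while the 5 alpha-cell markers summed to 55.0 and 58.0 CPM. *MET17* and *LEU2*, which BY4741 lacks, had 0 reads in both libraries. *HIS3*, of which the strain's allele keeps part, had 46.0 and 23.2 CPM and overlaps *YOR203W* on the same strand, and *URA3*, also deleted, is carried by the plasmid.

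Yeast prefers glucose and, while it is plentiful, keeps genes for other carbon sources, respiration and reserve carbohydrates at low levels, in part through the repressor Mig1. When glucose runs short the Snf1 kinase relieves this repression. Galactose is used through the Leloir pathway, whose genes are switched on by the activator Gal4 once the sensor Gal3 has drawn off the inhibitor Gal80. Ribosome production and entry into the cell cycle are known to follow the growth rate that the carbon source permits.

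Several kinds of gene on which the comparison turned are shown by the sequence before their start codons, with letters matching a known regulatory motif in capitals. The letters are those of the RefSeq R64 genome, read in the direction of the gene. In *GAL1* and *GAL2* the capitals mark matches to the Gal4 motif, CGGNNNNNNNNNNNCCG. They span chrII:278521-278720 on the plus strand and chrXII:289782-289911 on the plus strand.
GAL1: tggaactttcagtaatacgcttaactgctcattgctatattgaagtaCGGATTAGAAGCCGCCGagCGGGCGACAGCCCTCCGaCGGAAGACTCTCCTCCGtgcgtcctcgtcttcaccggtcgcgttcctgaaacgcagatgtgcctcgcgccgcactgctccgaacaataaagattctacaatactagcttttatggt
GAL2: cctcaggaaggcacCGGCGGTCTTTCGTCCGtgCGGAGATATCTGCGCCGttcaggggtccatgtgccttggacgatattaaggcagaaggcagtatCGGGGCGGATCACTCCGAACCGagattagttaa

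In *PGM2* (chrXIII:477807-478026, minus strand) and *HSP12* (chrVI:106806-107076, plus strand) the capitals mark the stress response element, CCCCT or its complement. These represent the genes for reserves and stress protection.
PGM2: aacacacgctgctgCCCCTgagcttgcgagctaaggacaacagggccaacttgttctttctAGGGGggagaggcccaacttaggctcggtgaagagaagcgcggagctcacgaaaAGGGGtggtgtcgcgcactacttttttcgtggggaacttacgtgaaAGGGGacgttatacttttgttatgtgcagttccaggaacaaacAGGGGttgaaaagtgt
HSP12: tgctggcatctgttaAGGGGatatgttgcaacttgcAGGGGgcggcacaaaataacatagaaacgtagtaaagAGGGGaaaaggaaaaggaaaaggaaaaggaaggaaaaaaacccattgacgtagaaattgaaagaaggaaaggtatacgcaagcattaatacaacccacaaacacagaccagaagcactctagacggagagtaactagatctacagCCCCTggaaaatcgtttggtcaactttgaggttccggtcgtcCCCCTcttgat

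In *NOG1* (chrXVI:370818-370887, plus strand), for ribosome biogenesis, the capitals mark the PAC core GATGAG and the RRPE motif AAATTTT, both on either strand. In *RNR1* (chrV:298450-298660, plus strand), for DNA precursors, they mark the MluI cell cycle box (MCB), ACGCGT.
NOG1: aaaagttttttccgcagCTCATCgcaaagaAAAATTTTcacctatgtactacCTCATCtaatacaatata
RNR1: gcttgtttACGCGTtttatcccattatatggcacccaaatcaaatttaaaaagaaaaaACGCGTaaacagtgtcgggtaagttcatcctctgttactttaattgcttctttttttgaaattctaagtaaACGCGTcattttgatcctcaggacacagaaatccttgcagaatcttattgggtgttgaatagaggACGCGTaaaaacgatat

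In galactose 1041 genes were at least 2-fold higher than in 0.25% glucose, or 19.2% of those compared, and 1138 were at least 2-fold lower, or 21.0%. The changes were not symmetrical in size. At 4-fold the calls numbered 429 higher (7.93%) and 128 lower (2.36%), and at 8-fold 184 and 8. The median level of the genes called higher was 35.8 CPM in 0.25% glucose and 144 CPM in galactose, and that of the genes called lower 117 and 41.8 CPM, which the call itself sets apart in this way. Reads from the genes called higher made up 7.42% of the 0.25% glucose library and 37.7% of the galactose library, and those from the genes called lower 42.4% and 14.4%. The median log2 change over all genes compared was -0.10, with quartiles of -0.86 and 0.72, and the median counting error of a log2 change was 0.12. These changes are on the log2(CPM + 1) scale, which understates the change of genes of low level.

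**Figure D1:**
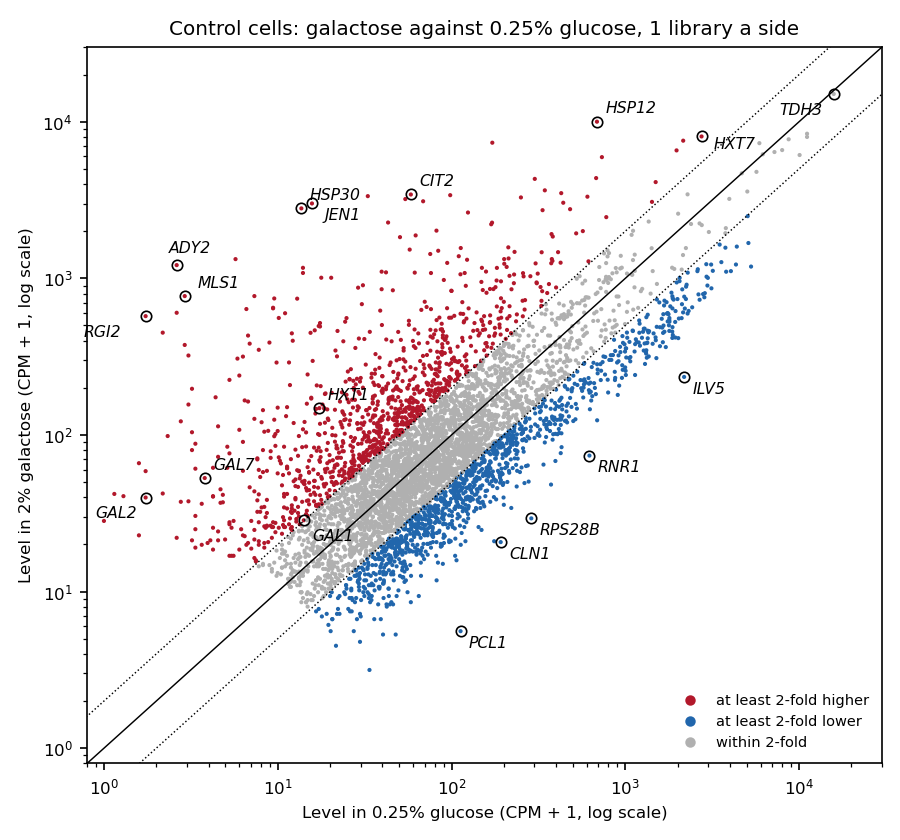
Level of each of the 5413 genes compared in control cells in 0.25% glucose (horizontal) and in 2% galactose (vertical), both as CPM + 1 on log axes, 1 library each. The solid line marks equal levels and the dotted lines 2-fold; the 1041 genes in red reach far above the upper line at low levels in glucose, while the 1138 in blue lie closer to the lower line.

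The largest rise was that of *ADY2*, an acetate transporter. It had 1.62 CPM in 0.25% glucose and 1214 CPM in galactose, a 749-fold difference (418 to 1501). *RGI2*, a gene of respiratory growth, went from 0.737 to 573 CPM, and *MLS1*, the malate synthase of the glyoxylate cycle, from 1.92 to 769 CPM. On the log2 scale these 3 rose by 8.86 ± 0.27, 8.37 ± 0.28 and 8.05 ± 0.26 (SE). Next came *SPG4* and *SPG1*, named for survival in stationary phase, at 7.86 and 7.69. *SFC1*, the mitochondrial succinate and fumarate carrier, rose by 7.85 and *HSP30*, a heat shock protein of the plasma membrane, by 7.68. *JEN1*, the lactate and pyruvate permease, stood at 14.7 CPM in 0.25% glucose and 3006 CPM in galactose, a log2 rise of 7.58 ± 0.14. The other members of the 15 largest rises lay between 6.28 and 7.01. They were *ECM13*, *YNL194C*, *POT1* (the thiolase of peroxisomal fatty acid oxidation), *YNR034W-A*, *ATO2*, *PUT1* (proline oxidase) and *HXT5*. In 0.25% glucose these 15 genes ranged from 5 reads for *RGI2* to 217 for *YNR034W-A*, so the starting levels carry most of the counting error.

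The largest falls were smaller and led by genes of the cell cycle. *PCL1*, a G1 cyclin of the Pho85 kinase, had 112 CPM in 0.25% glucose and 4.59 CPM in galactose, a log2 change of -4.33 ± 0.29. It was the 1 gene to fall more than 16-fold. The S-phase cyclin gene *CLB6* fell from 32.7 to 2.16 CPM and the G1 cyclin gene *CLN1* from 191 to 19.7 CPM. *RNR1*, the large subunit of ribonucleotide reductase, fell from 621 to 72.9 CPM, and *FAR1*, an inhibitor of the cyclin-dependent kinase, from 175 to 20.0 CPM. *YOX1* and *YHP1*, which encode homeobox repressors of cell cycle genes, changed by -2.80 and -2.79 and the mitotic cyclin gene *CLB2* by -2.75. Outside the cell cycle, *ILV5*, an enzyme of branched-chain amino acid synthesis, fell from 2179 to 234 CPM, and *RPS28B*, a protein of the small ribosomal subunit, from 287 to 28.3 CPM. *HLR1*, *MSB2* (a mucin of the cell surface), *YGR079W*, *RSA4* (ribosome assembly) and *YLR413W* completed the 15, with log2 changes from -3.17 to -2.69.

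Galactose genes were higher, but from levels that remained modest after 1 h. Of the 10 genes listed for galactose use, 8 were at least 2-fold higher and none lower, with a median log2 change of 2.38. Among these, *GAL2*, *GAL7*, *GAL10* and *GAL4* passed the minimum only through their level in galactose. The gene for the galactose permease, *GAL2*, had 0.875 CPM in 2% glucose, 0.737 CPM in 0.25% glucose and 38.9 CPM in galactose, a 52.7-fold difference between the last 2 (22.1 to 165). *GAL7*, the uridylyltransferase, rose from 2.80 to 52.1 CPM and *GAL10*, the epimerase, from 2.21 to 20.2 CPM. The galactokinase gene *GAL1* stood at 13.1 CPM in 0.25% glucose and 27.5 CPM in galactose, a 2.10-fold difference (1.56 to 2.82). *GAL1*, *GAL10*, *GAL7* and *GAL2* together summed to 18.9 CPM in 0.25% glucose and 139 CPM in galactose. Their level in 2% glucose, 16.1 CPM, was close to that in 0.25% glucose.

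The regulators of the pathway did not move as 1 group. *GAL3*, the galactose sensor, had 11.4 CPM in 0.25% glucose and 49.7 CPM in galactose. *GAL4*, the activator, had 9.88 and 39.4 CPM. *GAL80*, the inhibitor, had 75.6 and 76.4 CPM, a log2 difference of 0.01 ± 0.11. The highest levels in the list belonged to genes with a role beyond galactose. *PGM2*, the main phosphoglucomutase, went from 211 to 1576 CPM, and *GCY1*, a glycerol dehydrogenase under Gal4 control, from 41.1 to 406 CPM. *PGM1*, the minor phosphoglucomutase, went the other way, from 135 to 71.8 CPM, without reaching 2-fold.

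**Figure D2:**
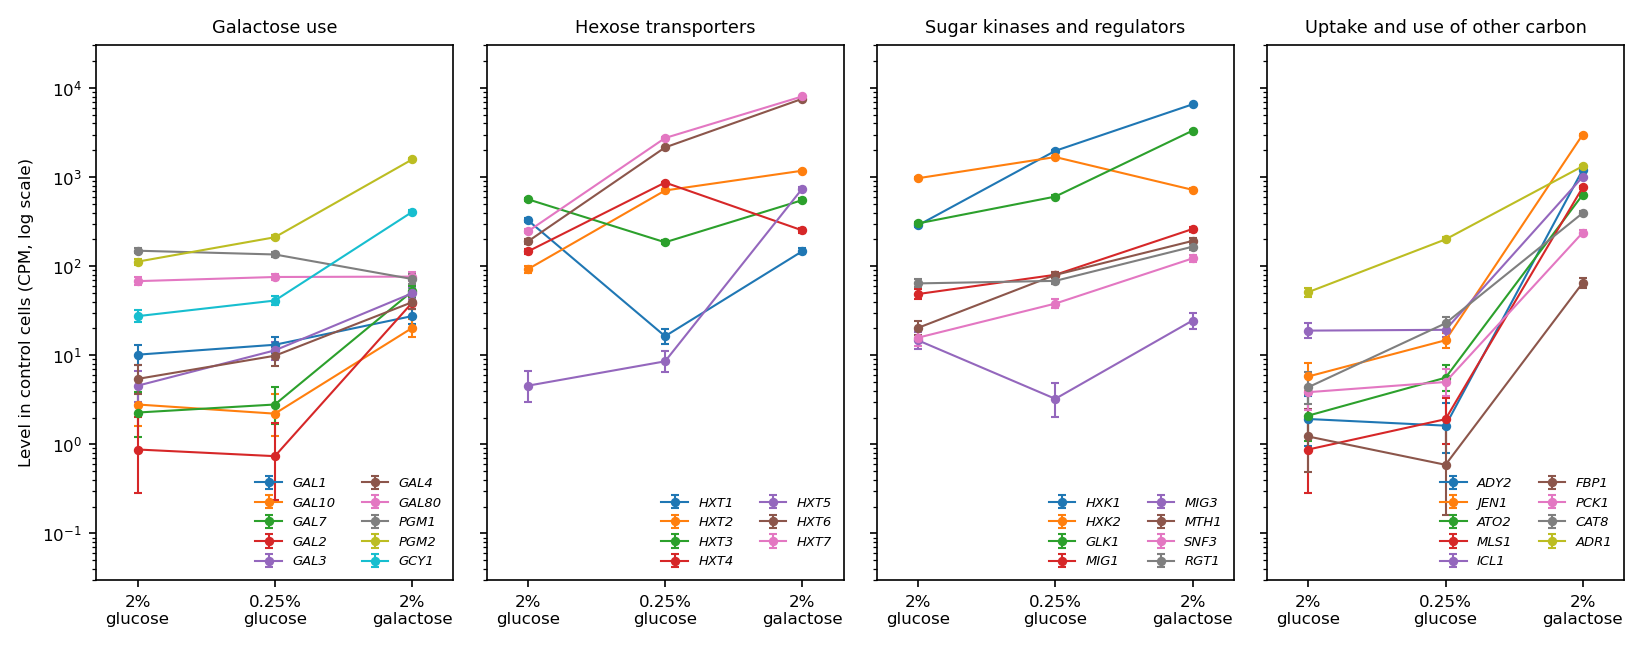
Levels of 34 genes in control cells in 2% glucose, 0.25% glucose and 2% galactose (CPM, log axis), 1 library per sugar, with 95% Poisson intervals that cover counting only. In the last panel most genes for other carbon sources stay low in both glucose media, and each of them is higher in galactose, while in the second panel *HXT1* and *HXT3* are lowest and *HXT4* is highest in 0.25% glucose.

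Hexose transporters, which bring glucose and fructose into the cell, differed in direction. Of 16 genes listed, 7 passed the minimum, of which 5 were higher and 1 lower. *HXT6* and *HXT7*, the high-affinity carriers, rose from 2153 to 7568 CPM and from 2745 to 8051 CPM. Reads cannot be divided between them with certainty, since the genes are almost the same in sequence. *HXT5*, a carrier of slow-growing cells, rose from 8.55 to 743 CPM and passed the minimum only through galactose. *HXT2* went from 708 to 1180 CPM, below 2-fold. *HXT4* was the 1 transporter that fell, from 869 to 252 CPM. The carriers for abundant glucose were higher in galactose than in 0.25% glucose. *HXT1* had 328 CPM in 2% glucose, 16.4 in 0.25% glucose and 147 in galactose, and *HXT3* had 564, 185 and 551 CPM. Both were thus lowest in 0.25% glucose.

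The kinases that trap glucose also differed in direction. *HXK1*, hexokinase 1, rose from 1971 to 6559 CPM and *GLK1*, glucokinase, from 604 to 3321 CPM. Both overlap another feature on the same strand, and reads in the overlap cannot be assigned to 1 of them. *HXK2*, the hexokinase of cells rich in glucose, fell from 1679 to 719 CPM, a log2 change of -1.22 ± 0.03. Genes for other sugars were higher without those sugars in the medium. Of 12 sucrose and maltose genes compared, 9 were higher and none lower, with a median of 1.53. *SUC2*, the invertase, went from 148 to 948 CPM and *MAL11*, a maltose permease, from 22.4 to 186 CPM. *IMA3*, an isomaltase with close paralogs, went from 2.95 to 19.4 CPM and passed the minimum only through galactose.

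Over all genes compared 19.2% were higher and 21.0% lower. Among 23 genes for glucose sensing and repression, 8 were higher (34.8%) and 2 lower (8.70%), with a median of 0.15. *REG2*, a regulatory subunit of the Glc7 phosphatase, had the largest change in this group, from 5.01 to 107 CPM. *MIG1* went from 80.0 to 261 CPM, *SNF3*, a sensor of low glucose, from 38.0 to 122 CPM, and *MTH1*, a corepressor of the *HXT* genes, from 79.7 to 192 CPM. *MIG3*, a relative of *MIG1*, had 14.7 CPM in 2% glucose, 3.24 in 0.25% glucose and 24.6 in galactose. *SIP2*, a subunit of the Snf1 complex, rose by 2.36 ± 0.13 on the log2 scale. Activators of genes for nonfermentable carbon sources were higher in 8 of 14 and lower in none, with a median of 1.43. *CAT8*, which drives genes of gluconeogenesis, went from 22.9 to 395 CPM and its target *SIP4* from 2.21 to 103 CPM. *ADR1*, the activator of ethanol and peroxisomal genes, went from 200 to 1326 CPM. *HAP4*, the limiting subunit of the respiratory activator, went from 158 to 808 CPM, and *USV1* from 32.9 to 454 CPM.

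Genes that build sugar from smaller molecules and feed acetyl units into metabolism had the largest medians among the lists. These medians include *MLS1*, *SFC1*, *FBP1*, *PCK1*, *ADY2* and *ATO2*, which passed the minimum only through their level in galactose. Of 15 genes of gluconeogenesis and the glyoxylate cycle, 12 were higher and none lower, with a median log2 change of 3.82. *FBP1*, fructose-1,6-bisphosphatase, had 0.590 CPM in 0.25% glucose, which was 4 reads, and 65.0 CPM in galactose. *PCK1*, phosphoenolpyruvate carboxykinase, rose from 5.01 to 239 CPM and *ICL1*, isocitrate lyase, from 19.3 to 1008 CPM. *CIT2*, the peroxisomal citrate synthase, went from 57.3 to 3430 CPM, a 59.8-fold difference (54.1 to 66.3). In the list for ethanol and acetate, 9 of 13 were higher and 1 lower, with a median of 3.71. The acetyl-CoA synthetase gene *ACS1* rose from 11.2 to 399 CPM and the mitochondrial aldehyde dehydrogenase gene *ALD4* from 250 to 3284 CPM. *ADH2*, the alcohol dehydrogenase that consumes ethanol, went from 245 to 299 CPM, a log2 difference of 0.28 ± 0.06 and short of 2-fold.

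Fatty acid oxidation followed the same course, with 17 of 20 genes higher, none lower and a median of 3.43. *POX1*, the first enzyme of the pathway, had 2.06 CPM in 0.25% glucose and 155 CPM in galactose. *CTA1*, the peroxisomal catalase, went from 4.86 to 306 CPM and *FAA1*, a fatty acyl-CoA synthetase, from 257 to 1078 CPM. For glycerol, 5 of 11 genes were higher (45.5%, against 19.2% of all genes compared) and 1 lower (9.09%, against 21.0%). The glycerol transporter gene *STL1* had 2 reads in 0.25% glucose, or 0.295 CPM, and 39.7 CPM in galactose, a ratio of 135 (36.6 to 1122). *GUT1*, glycerol kinase, rose from 82.0 to 395 CPM, whereas *RHR2*, which makes glycerol, fell from 528 to 253 CPM. *YIG1*, also in this list, rose from 2.21 to 196 CPM.

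Genes of mitochondrial energy metabolism were mostly higher. In the TCA cycle list 16 of 24 genes were higher and 1 lower, with a median of 1.76. *CIT1*, the mitochondrial citrate synthase, rose from 300 to 4314 CPM and *IDH1*, a subunit of isocitrate dehydrogenase, from 60.4 to 1087 CPM. The pyruvate carrier gene *FMP43* (now *MPC3*) rose from 13.0 to 1081 CPM. *ACO1*, aconitase, rose from 333 to 2723 CPM, and *CIT3*, a further citrate synthase of mitochondria, from 3.54 to 112 CPM. In the respiratory chain 24 of 26 genes were higher and 1 lower, with a median of 2.01. *NDI1*, the internal NADH dehydrogenase, rose from 120 to 895 CPM and *CYB2*, the lactate dehydrogenase, from 10.8 to 207 CPM. *NDE2*, an external NADH dehydrogenase, rose from 7.07 to 120 CPM. The ATP synthase genes were higher in 13 of 17 and lower in none, with a median of 1.41, led by the regulators *STF2* at 3.24, *STF1* at 2.60 and *INH1* at 1.90.

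The 1 respiratory chain gene called lower was *CYC1*, iso-1-cytochrome c. It had 732 CPM in 2% glucose, 1338 in 0.25% glucose and 388 in galactose, a log2 change of -1.79 ± 0.04. Its paralog *CYC7* rose from 16.5 to 517 CPM. The vector pCM190 carries *CYC1* promoter and terminator segments, and the plasmid-borne *PPZ1* transcript, also in that vector, fell from 17798 to 2705 CPM in the cells that overexpress it, where *CYC1* fell from 1970 to 294 CPM. The part of vector transcripts in the *CYC1* value was not tested. *URA3*, the selection marker of the plasmid, went from 1494 to 4116 CPM in control cells.

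Glycolysis showed no common direction. Of 20 genes 7 were higher (35%, against 19.2% of all genes compared) and 2 lower (10%, against 21.0%), with a median of -0.03. The abundant isoforms stayed near their level. *TDH3*, glyceraldehyde-3-phosphate dehydrogenase, had 15819 CPM in 0.25% glucose and 15041 CPM in galactose. Its minor paralog *TDH1* rose from 343 to 3646 CPM, and *ENO1*, an enolase, from 732 to 5941 CPM. *EMI2*, a paralog of glucokinase, rose by 2.51 ± 0.04. In fermentation, 1 of 8 genes was higher (12.5%), *ADH5* from 30.5 to 95.5 CPM, and none lower. *ADH6* had 302 and 154 CPM, short of 2-fold. *PDC1*, the main pyruvate decarboxylase, had 10068 and 6128 CPM, a log2 difference of -0.72 ± 0.01, and *ADH1*, the fermentative alcohol dehydrogenase, 7215 and 6405 CPM.

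Most genes of reserve carbohydrates and of stress protection were higher. For trehalose and glycogen 20 of 22 genes were higher and none lower, with a median of 2.19. *GLC3*, the glycogen branching enzyme, went from 112 to 1561 CPM, and *GDB1*, the debranching enzyme, from 118 to 1081 CPM. *GAC1*, which directs the Glc7 phosphatase to glycogen synthase, rose from 15.6 to 146 CPM and *UGP1*, which makes UDP-glucose, from 613 to 1283 CPM. Genes that make and genes that degrade the reserves thus rose side by side. In the list for general stress and heat shock 20 of 34 were higher and 2 lower, with a median of 2.16. *HSP12*, a membrane-protecting protein, rose from 686 to 10005 CPM and *HSP26*, a small chaperone, from 49.5 to 1831 CPM. *HSP104*, the disaggregase, went from 427 to 3498 CPM. *SIP18*, a protein of desiccation tolerance, rose from 1.33 to 97.4 CPM and overlaps *YMR175W-A* on its strand. The 2 genes that fell, *SSB1* from 3187 to 1116 CPM and *SSB2* from 2635 to 789 CPM, encode chaperones bound to ribosomes, not stress-induced ones.

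Defences against peroxide and superoxide moved less as a group, with a median of 0.59. Of 25 genes 8 were higher (32%, against 19.2% of all genes compared) and 2 lower (8%, against 21.0%). *CTT1*, the cytosolic catalase, rose from 41.0 to 1091 CPM and *GPX1*, a glutathione peroxidase, from 10.3 to 150 CPM. *AHP1*, an abundant peroxiredoxin, had 1362 and 2303 CPM and remained below 2-fold. Autophagy genes were higher in 21 of 29 and lower in none, with a median of 1.40, and *ATG8*, the ubiquitin-like protein of the autophagosome, rose from 14.9 to 296 CPM. *YLR312C*, which overlaps *YLR311C* on its strand, and *ATG29* rose by 3.11 and 2.82 on the log2 scale. Of 34 proteasome genes 3 were higher (8.82%, below the 19.2% of all genes compared) and none lower, with a median of 0.55. *RPN4*, the activator of proteasome genes, was among the 3 and went from 108 to 291 CPM. The others were the subunit genes *RPN13* at 1.08 and *PRE4* at 1.01, and *RPN8* had 0.74.

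Genes for the production of ribosomes were lower in each list examined. Of 138 genes for cytosolic ribosomal proteins, 128 were at least 2-fold lower and none higher, with a median of -1.71 and a range from -3.29 to -0.25. Their share of all reads was 22.2% in 0.25% glucose and 7.78% in galactose. Many of these genes are duplicated pairs of near-identical sequence, so the values of single paralogs are uncertain. Beside *RPS28B*, the largest falls were those of *RPS9A* at -2.47 and *RPL6B* at -2.33, and *RPS31*, the highest per kb, went from 5061 to 2494 CPM. Of 126 ribosome biogenesis genes 96 were lower and none higher, with a median of -1.34. *NOG1*, a GTPase of the large subunit, fell from 277 to 49.4 CPM and *ALB1*, a shuttling factor, from 82.5 to 14.3 CPM. *UTP22* changed by -2.34 and *NOP10* by -1.62. RNA polymerases I and III, which make ribosomal and transfer RNA, were lower in 23 of 24 genes, with a median of -1.75. *RPC25* fell from 52.6 to 10.5 CPM and *RPA12* by 2.21 ± 0.21 on the log2 scale. *RPC19* changed by -2.16 and *RPB10*, a subunit of all 3 nuclear polymerases, by -1.06.

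Translation factors were lower in 25 of 37 genes and higher in none, with a median of -1.24. *NIP1*, a subunit of initiation factor eIF3, had the largest fall in this list, from 337 to 63.7 CPM. *EFB1* and *TEF4*, of the exchange factor for elongation factor 1A, fell from 1936 to 526 CPM and from 1790 to 542 CPM. *TEF2*, elongation factor 1A, had 11112 CPM in 0.25% glucose and 8383 CPM in galactose, short of 2-fold. *TEF1* and *TEF2* encode the same protein and share reads. The ribosomal proteins of mitochondria did not follow those of the cytosol. Of 68 genes 2 were higher (2.94%, against 19.2% of all genes compared) and 4 lower (5.88%, against 21.0%), with a median of -0.06. *RSM22* and *MRPL39* changed by -1.37 and -1.33. *MRP8*, in the list by its name and of uncertain function, went from 178 to 878 CPM.

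Synthesis of building blocks was lower in part. Purine synthesis genes were lower in 14 of 22 and higher in none, with a median of -1.36, and *ADE4*, the first committed step, fell by 1.76 ± 0.13 on the log2 scale. *GCV2* and *IMD3*, named here only as members of the list, changed by -1.90 and -1.87 and *GUA1*, GMP synthase, by -1.50. Ergosterol genes were lower in 15 of 26 and higher in none, with a median of -1.16. *ERG5* fell from 199 to 34.8 CPM and *ERG3* from 406 to 100.1 CPM, *ERG25* changed by -1.93 and *ERG20* by -0.32. Amino acid synthesis was lower in 15 of 51 (29.4%, against 21.0% of all genes compared) and higher in 3, with a median of -0.69. *BAT2*, the cytosolic branched-chain aminotransferase, was 1 of the 3 and rose from 181 to 968 CPM. *CPA1*, of arginine synthesis, rose by 2.36 but overlaps another feature on its strand. *LEU1*, of leucine synthesis, had 3765 and 1941 CPM, short of 2-fold. For methionine and sulfate, 6 of 26 were lower (23.1%, near the 21.0% of all genes compared) and 1 higher. *MET6*, methionine synthase, fell from 1130 to 340 CPM and *SAH1*, adenosylhomocysteinase, from 1291 to 476 CPM.

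Permeases moved in both directions. Of 20 compared, 9 were higher (45%, against 19.2% of all genes compared), with a median of 0.68. The 4 lower genes, or 20%, were near the 21.0% of all genes compared. *GAP1*, the general amino acid permease, rose from 38.6 to 851 CPM, *PUT4*, for proline, from 8.84 to 289 CPM, and *DIP5*, for acidic amino acids, by 3.42. *AGP2* rose by 3.70. *MUP1*, the high-affinity methionine permease, fell from 395 to 101 CPM, *TAT1* from 239 to 69.6 CPM and *TAT2*, for tryptophan, from 124 to 34.3 CPM. Iron uptake had 4 of 17 higher (23.5%) and 2 lower, and phosphate uptake 4 of 20 higher (20.0%) and 2 lower, shares of higher genes near the 19.2% of all genes compared. The lower iron genes were the partners *FET3* and *FTR1* of the high-affinity system, which changed by -1.64 and -2.32. *MRS4*, a mitochondrial iron carrier, rose from 34.5 to 215 CPM and *FIT2*, a mannoprotein of the cell wall, from 15.2 to 49.9 CPM. In the phosphate list *PHM7* rose from 8.40 to 642 CPM, *SPL2* from 1.77 to 36.4 CPM and *PHM8* from 5.90 to 45.3 CPM. *PHM7*, *SPL2* and *PHM8* passed the minimum only through their level in galactose. *VTC1* had 119 and 89.9 CPM.

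Cell cycle genes were lower without a matching change in histones. Of 20 cyclins and genes of cell cycle entry, 15 were lower and none higher, with a median of -1.66. *CLN3*, the most upstream G1 cyclin, fell from 88.6 to 32.9 CPM and *CLN2* from 191 to 54.2 CPM. *SIC1*, an inhibitor of S-phase kinases, had 68.7 and 126 CPM, a log2 difference of 0.86 ± 0.09. DNA replication genes were lower in 22 of 34 and higher in none, with a median of -1.24. *POL30*, the sliding clamp, fell from 182 to 44.8 CPM and *POL12*, of polymerase alpha, from 71.9 to 16.2 CPM. *RNR4*, the small reductase subunit, had 530 and 395 CPM. Histone genes, with 10 compared, had 0 called in either direction and a median of -0.15. The extremes among them were *HHT2* at 0.80 ± 0.03 and *HTZ1* at -0.59 ± 0.10, and *HHF2* had 941 and 1392 CPM.

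Genes of mating type a were lower as well, 6 of 7, with a median of -1.66. *STE2*, the receptor for alpha factor, fell from 526 to 146 CPM and *BAR1*, the protease that destroys that pheromone, from 214 to 56.4 CPM. *AGA2*, an agglutinin subunit, and *MFA2*, an a-factor gene and the highest per kb in the list, changed by -1.90 and -1.04. The alpha-cell list had 2 genes past the minimum, *SAG1* at 0.21 ± 0.16 and *YLR040C* at -0.16 ± 0.23, and the pheromone genes MF(ALPHA)1 and MF(ALPHA)2 were below it. Among meiotic markers, 3 of 10 passed the minimum, *HOP1* and *IME1* only through their level in galactose, so no count is read from them. *HOP1* went from 7.52 to 24.6 CPM, *IME1* from 9.88 to 27.5 and *IME2* from 10.9 to 24.3 CPM. *DMC1* and *NDT80*, which mark later meiosis, were below the minimum. In galactose the summed level of the 10 meiotic markers was 121 CPM, against 47.0 CPM in 0.25% glucose.

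**Figure D3:**
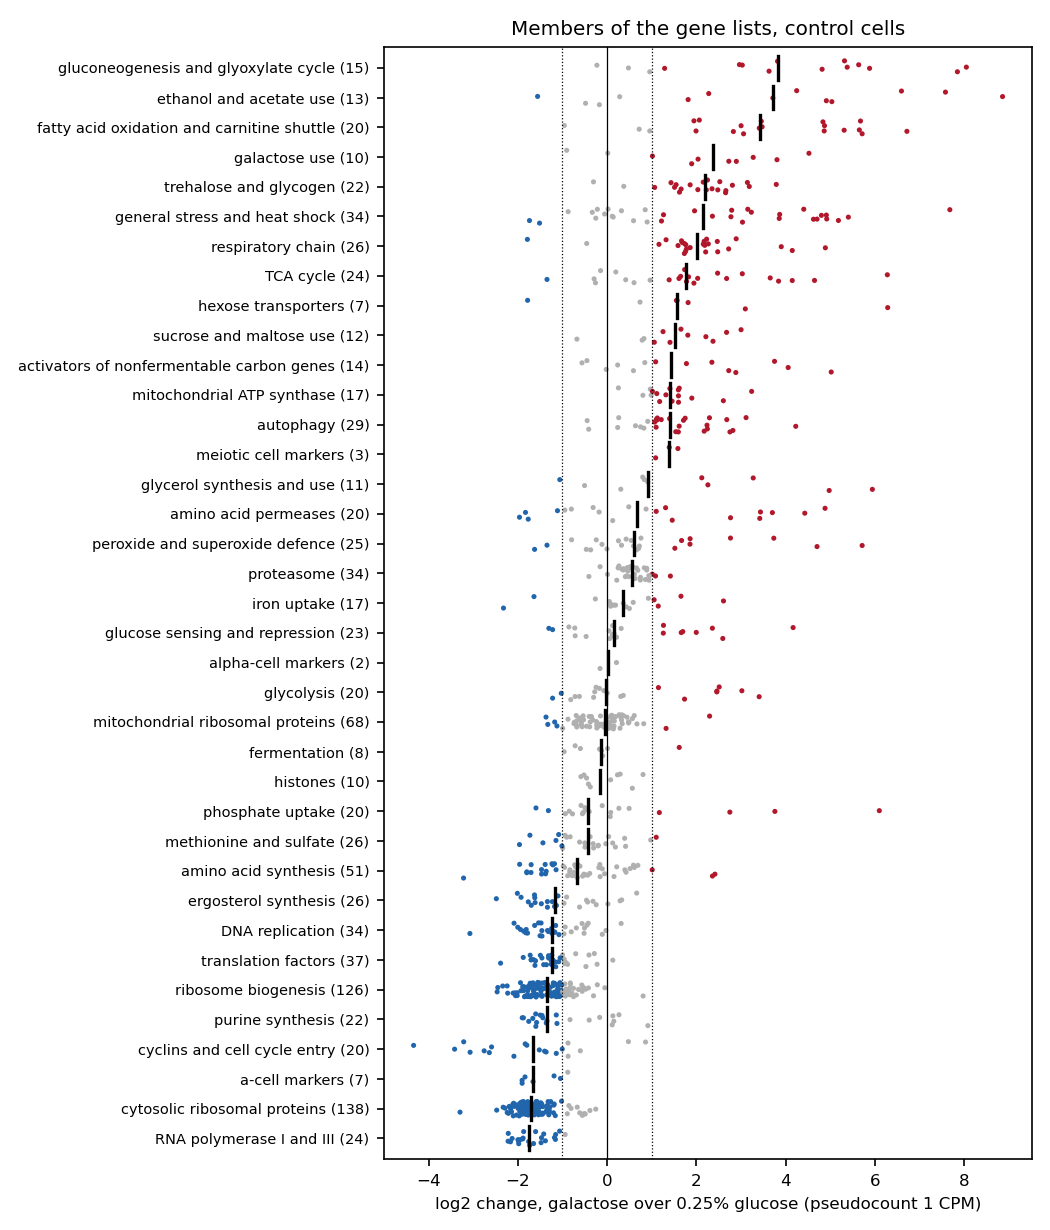
log2 change of galactose over 0.25% glucose for each list member compared, with the number compared in parentheses, lists ordered by their median (black bar). Medians include members that passed the minimum only through their level in galactose. Red and blue points are at least 2-fold higher and lower; gluconeogenesis stands at the top with a median of 3.82 and RNA polymerases I and III at the bottom with -1.75, against -0.10 over all genes compared.

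A parallel culture, moved to 2% glucose, gives a further level for each gene. The comparison of 0.25% with 2% glucose shares the 0.25% glucose library with the one described above, so its values are only set beside it. Between the glucose media 64 of the genes compared were at least 2-fold higher at 0.25% (1.18%) and 9 lower (0.166%). Of the 1041 genes higher in galactose, 979, or 94.0%, were within 2-fold between both glucose media, and of the 1138 lower genes 1135 were. With only 1.18% and 0.166% of all genes compared past 2-fold there, such high shares are not particular to the genes called in galactose. Of the 64 genes higher in 0.25% than in 2% glucose, 57 were higher in galactose than in 0.25% glucose, *HXT4* was lower, and 6 were within 2-fold. Of the 9 genes lower in 0.25% than in 2% glucose, 5 were higher in galactose than in 0.25% glucose, among them *HXT1*, *HXT3* and *MIG3*. Over all genes compared 19.2% were higher in galactose. A low value in the shared 0.25% glucose library puts a gene in both of these last groups, so no result is read from the 5.

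*CAT8* differed between each pair of the 3 parallel cultures, with 4.38 CPM in 2% glucose, 22.9 in 0.25% glucose and 395 in galactose. *ADR1* had 51.1, 200 and 1326 CPM. *ICL1* was level between the glucose media, with 18.9, 19.3 and 1008 CPM. Among the lower genes *RNR1* had 633, 621 and 72.9 CPM and *NOG1* 294, 277 and 49.4 CPM, level between the glucose media. The gene *CSM4*, a meiotic gene picked out after its values were seen, had 0 reads in both glucose libraries of control cells and 101 reads in galactose, or 27.3 CPM. Against a floor of 3 reads in the 0.25% glucose library, or 0.442 CPM, it was at least 61.6-fold higher.

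The same change of sugar was measured in cells overexpressing *PPZ1*, in a pair of libraries that control cells do not share. These cells differ from control cells by the plasmid insert, are called another strain here, and are no replicate. Their 0.25% glucose library was the shallowest, with 1845237 reads. There 1296 of the genes compared were higher in galactose (23.9%) and 1051 lower (19.4%). The genes higher in both strains numbered 889, which is 85.4% of those in control cells and 68.6% of those with *PPZ1*. The genes lower in both numbered 795, or 69.9% and 75.6%. Of the 1041 higher genes in control cells 1036 also had a positive change with *PPZ1*, and of the 1138 lower genes 1119 had a negative one. Across genes, which are not independent replicates, the log2 changes in both strains had a Spearman correlation of 0.88 and a Pearson correlation of 0.91.

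Single genes differed in how close their changes were. *ADY2* rose by 8.86 in control cells and 9.60 with *PPZ1*, *HXT5* by 6.28 and 6.29, and *GAL2* by 4.52 and 4.49. *PCL1* changed by -4.33 and -3.74. Further apart were *MLS1* at 8.05 and 6.99, *YNR034W-A* at 6.67 and 4.60, *CLB6* at -3.42 and -1.93, *MSB2* at -2.95 and -1.44 and *CLB2* at -2.75 and -1.57. The medians of lists were 3.82 and 3.52 for gluconeogenesis, 2.01 and 1.86 for the respiratory chain, and -1.71 and -1.88 for cytosolic ribosomal proteins. For cyclins they were -1.66 and -0.99, and for glucose sensing 0.15 and 1.36. The *PPZ1* pair differed by a trend with coding length, with a Spearman correlation of 0.20 between length and log2 change against -0.06 in control cells. The part of that trend in the differences between strains was not tested.

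**Figure D4:**
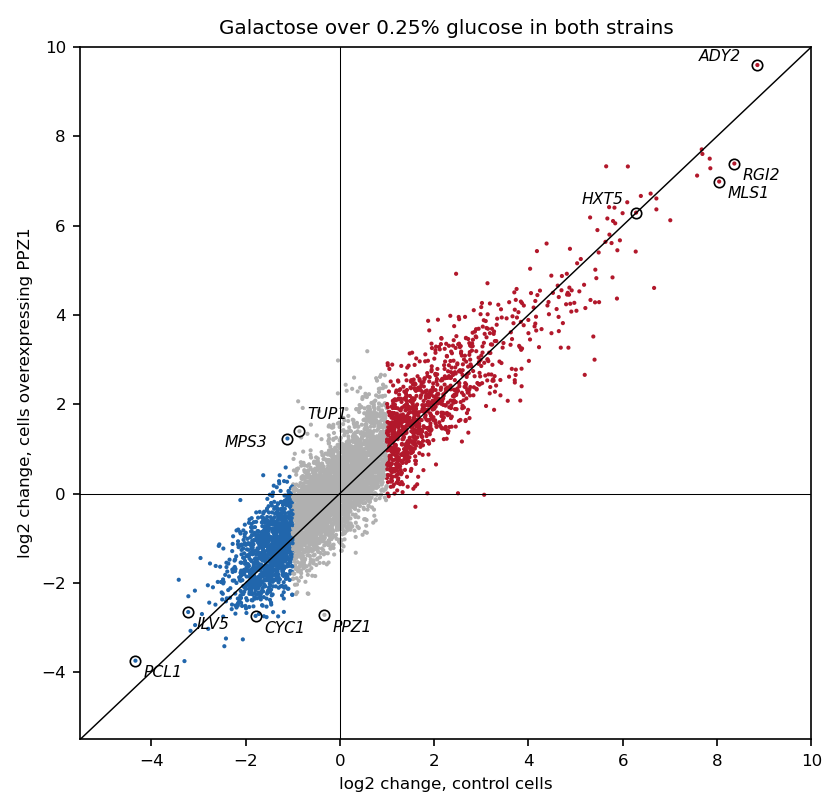
log2 change of galactose over 0.25% glucose in control cells (horizontal) and in cells overexpressing *PPZ1* (vertical) for the 5413 genes compared, 1 library per strain and sugar, coloured by the call in control cells. The line marks equal changes; most genes lie along it, and *MPS3* and *TUP1* lie in the upper left, negative in control cells and positive with *PPZ1*.

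The 500 bases before the start codon were searched on both strands for 8 motifs in 5337 of the genes compared, those whose start and end equal the R64 annotation. A match is a run of letters and not a binding site. The Gal4 motif occurred in 155 promoters, or 2.90%, and in 8 of the 10 genes of galactose use. *GAL2* held 4 matches, 2 of which overlap, and *GAL1* held 3, the ones shown above, which lie 453, 434 and 416 bases before the start codon and are shared with *GAL10* on the other side. *GAL7* held 1. *GAL80*, with 1 match, had nearly equal levels in both libraries, and *PGM2*, with none, rose 7.46-fold. Among all promoters with a match the median log2 change was 0.24, against -0.11 in those without.

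The stress response element CCCCT was present in 34.2% of all promoters, 57.8% of those of genes at least 2-fold higher and 67.7% of those past 16-fold, but 24.6% of those of lower genes. *HSP12* and *PGM2* each held 5 matches. The Mig1 core CCCCNC, which shares letters with it wherever CCCCTC occurs, was in 23.2% of all promoters, 39.2% of those of higher genes and 19.0% of those of lower genes. The CCAAT box, which the Hap complex binds, was in 62.4% of all promoters and 64.5% of those of higher genes, and in all 15 genes of gluconeogenesis and the glyoxylate cycle. Genes with the stress element had a median log2 change of 0.30 and those without it -0.27.

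Lower genes carried other letters. The PAC core GATGAG was in 28.6% of all promoters and 41.5% of those of lower genes, and the RRPE motif AAATTTT in 34.9% and 51.1%. In ribosome biogenesis they reached 90.5% and 95.2%, and in RNA polymerases I and III 79.2% and 83.3%. In the promoters of cytosolic ribosomal proteins, of which 128 of 138 were lower, the PAC core was in 21.7% and the RRPE motif in 47.8%. The cell cycle box ACGCGT was in 5.53% of all promoters, 8.36% of those of lower genes and 52.9% of those of DNA replication genes, and *RNR1* held 4. The carbon source response element, which Cat8 and Sip4 bind, was in 0.468% of all promoters and 6.45% of those at least 16-fold higher. These were 25 promoters in all and 6 of the 93 past 16-fold. Over all promoters the median log2 change was -0.35 with a match to this element and -0.10 without. These last 2 motifs were added after values had been seen.

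**Figure D5:**
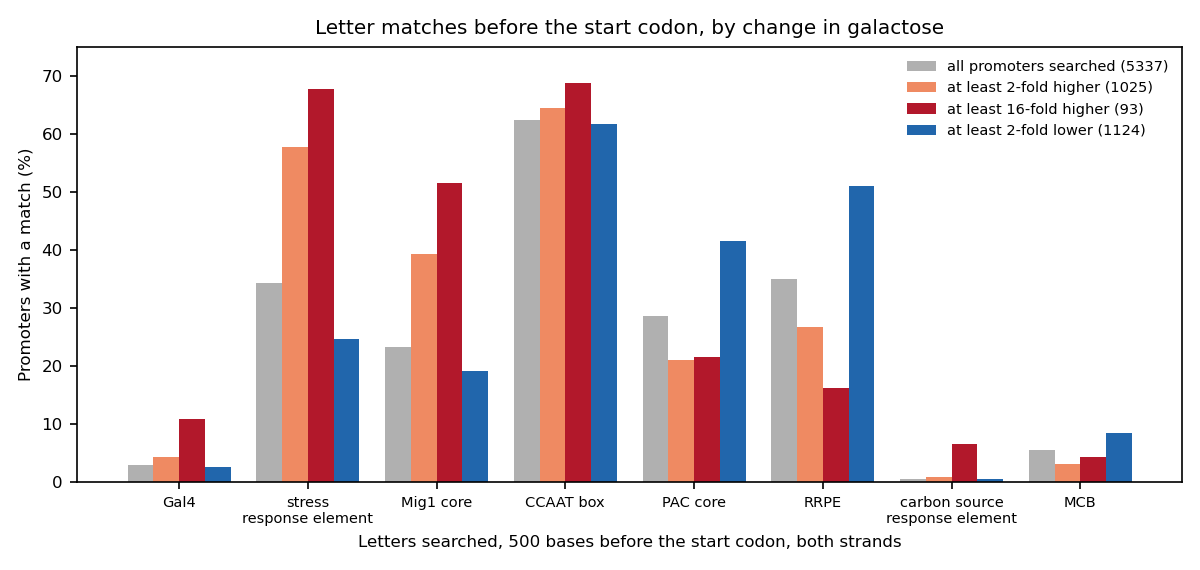
Share of promoters (percent, from 0) with at least 1 match to each motif in the 500 bases before the start codon, for all 5337 promoters searched and for genes past 2-fold or 16-fold upward or past 2-fold downward in galactose. The stress response element stands at 67.7% in the 93 genes at least 16-fold higher and 24.6% in lower genes, and the RRPE motif at 16.1% and 51.1%.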

How the data were processed

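The deposited values are mRNA-Seq values for 6687 features in 6 libraries, 1 per condition. According to the methods and labels, the authors aligned reads with Bowtie2 (version not given), then counted them in SeqMonk 0.32.1 over each coding sequence widened by 50 bases at each end, on the strand opposite to the feature and without duplicates. The deposited values for control cells in 0.25% glucose are raw read counts, while those of the other libraries are a signal, which the authors obtained as counts times a factor of each library (1.83 for control cells in galactose). Undoing this scaling gave 100% whole reads, with a tolerance of 0.01. The build they aligned to was not given in the sources used here. Among 6000 features (89.7%) matched to RefSeq R64, 5986 had the same start and end, and names follow the files.

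CPM were taken relative to the summed count of the deepest library, which keeps the authors' scaling, with a pseudocount of 1 CPM before log2 (Python 3.11.15, pandas 2.3.3, scipy 1.17.1). Errors follow from Poisson counting, and intervals are exact. A 2-fold difference, the study's threshold, counted as a call where the mean over both libraries reached 10 CPM. The calls were set beside a fit to the recovered reads of all 6 libraries with plasmid and sugar as additive terms (edgeR 4.0.16 quasi-likelihood test, Benjamini-Hochberg adjustment, R 4.3.3). Scripts were tested on simulated data.

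The genes and lists were chosen with earlier results of these data known. Named were the 15 largest rises and falls, every gene of galactose use and, in each other list, the 3 largest changes and the gene of highest mean level per kb. Other genes named were chosen after their values were seen. With 1 library a side the comparison itself has no test. The values of 1 gene are not reported here.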

Additional observations from a re-analysis of the deposited data

Results flagged for a closer look

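Among the genes named in this report, 4 had changes of opposite sign in the control strain and in the strain overexpressing *PPZ1*. The change is that between 0.25% glucose and galactose, and it was beyond the counting error in each. The remaining genes compared were searched only for changes past 2-fold in opposite directions. These differences between the strains were not tested, since each strain has 1 library per sugar. *MPS3*, a component of the spindle pole body and nuclear envelope, changed by -1.11 ± 0.20 in control cells and by 1.23 ± 0.40 with *PPZ1*, and was the 1 gene past 2-fold in opposite directions. Its level in 0.25% glucose was 36.7 CPM in control cells and 6.32 CPM, or 12 reads, with *PPZ1*, while both galactose libraries were near 16.5 and 16.2 CPM. *TUP1*, a general corepressor, changed by -0.86 ± 0.07 and 1.39 ± 0.14. It likewise had 293 CPM in 0.25% glucose in control cells and 63.7 CPM with *PPZ1*, against 161 and 169 CPM in galactose. For both genes the strains thus stood apart in 0.25% glucose and close together in galactose. *ADH1* changed by -0.17 in control cells and 0.11 with *PPZ1*, and *TDH3* by -0.073 and 0.11, all far below 2-fold.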

How the results depend on the processing

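Counts of genes at least 2-fold higher and lower, 1041 and 1138, stayed within 1.5 times under other scalings, minimums, pseudocounts and a removed length trend. They were 1095 and 1065 with median-of-ratios scaling, 928 and 1313 with upper-quartile scaling, which moved the median change of all genes from -0.10 to -0.22, 1253 and 1197 with no minimum, 756 and 760 with a minimum of 50 CPM, 966 and 1033 with a pseudocount of 5 CPM, and 1112 and 1021 without the length trend. A threshold of 1.5-fold gave 1544 and 1819, and 4-fold 429 and 128. In the additive model, chosen after seeing the data, 1162 and 1072 genes were at least 2-fold apart and passed an edgeR quasi-likelihood test at an adjusted p of 0.05. That model includes the compared libraries and assumes an equal response in both strains. No named gene or list reversed its direction among those called, but with upper-quartile scaling 58 named genes and 7 lists moved by more than the counting error. The numbers were 46 and 7 without the length trend, 49 and 2 with a pseudocount of 5 CPM and 16 and 1 with median-of-ratios scaling. Another minimum leaves the change of each gene kept as it was, so no named gene could move under it. With a minimum of 50 CPM 166 named genes remained, against 202 with no minimum. The lists, whose members change with the minimum, moved in 8 cases at 50 CPM and in 4 with no minimum. Depth limits genes of few reads in 0.25% glucose, where 1 read is 0.147 CPM. No paired analysis was possible because control cells have 1 library per sugar, which also leaves no replicate to omit; the additive model takes the plasmid as a block over both strains.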

Other observations

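Further genes, picked after their values were seen, changed outside the groups above. *ARO9* and *ARO10*, of the catabolism of aromatic amino acids, went from 11.9 to 741 CPM and from 5.90 to 382 CPM, and *GDH2*, the glutamate dehydrogenase that releases ammonium, from 93.4 to 1254 CPM. *DUR1,2*, urea amidolyase, had 56.6 CPM in 0.25% glucose and 222 CPM in galactose. *TMA10*, a ribosome-associated protein, had 171 and 7345 CPM, and *BTN2*, a factor of protein sorting, 42.2 and 2271 CPM. The metallothionein genes *CUP1-1* and *CUP1-2*, identical copies whose reads cannot be told apart, had 168 and 170 CPM in 0.25% glucose and 2214 and 2267 CPM in galactose.

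*GAS1*, a glucan-remodelling enzyme of the cell wall, went from 2016 to 414 CPM, *ECM33* from 1709 to 363 CPM and *EXG1*, an exoglucanase, from 688 to 123 CPM. Features with systematic names made up 20.7% of the genes called higher and 7.47% of those called lower, against 14.1% of the genes compared.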
